A study of Mus musculus with 18 samples.

Results

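Apolipoprotein mRNAs were examined in the livers of hypothyroid and control mouse pups. The group was a list of 10 genes, Apoa1, Apoa2, Apoa4, Apoa5, Apob, Apoc1, Apoc2, Apoc3, Apoe and Apoh, chosen by name, and 9 of them were matched to at least 1 array probe, of 16535 genes matched in all, with 13 of the 41174 probes of the array. Apoc2 had no matched probe and was not analysed here. RNA from the livers of 5 control and 5 hypothyroid male C57BL/6 pups was hybridized on 2-colour arrays, each against the same commercial reference, a pool of mouse total RNA. All pups were PND 15 (PND, post natal day) and all dams drank sugar water (1%). Per the methods 1 male pup was taken from each litter, and pups of both groups were injected with PBS on the day they were killed. For the hypothyroid group the water also held 0.05% methimazole (MMI) and 1% perchlorate from PND 12. MMI blocks the synthesis of thyroid hormone and perchlorate blocks the uptake of iodide by the thyroid, and the pups were exposed through the dam and the shared water. The values below are log2 of the liver signal over the reference signal on the same array.

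Apolipoproteins are the protein part of the particles that carry fat and cholesterol in blood. Apob is the structural protein of the particles that the liver secretes, the A group is mainly found on HDL, and the C group and Apoe govern how particles meet lipases and receptors. The liver is the main source of most of them, with the intestine as the other large source of some, and thyroid hormone is known to act on lipoprotein metabolism in the liver. The genes lie partly in clusters. In the RefSeq annotation of GRCm38.p6, Apoa1, Apoc3, Apoa4 and Apoa5 follow each other on chromosome 9, Apoe, Apoc1 and Apoc2 lie together on chromosome 7, and Apoa2, Apob and Apoh lie alone on chromosomes 1, 12 and 11.

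Sequence upstream of the start was found in the RefSeq promoter table (GRCm38.p6) for 8 of the 10 genes, with 12 windows of 250 bases. Apoc1 and Apoc3 had no entry. The windows of Apoa1, Apoa4 and Apoa5 are shown because these genes are neighbours. Of these, Apoa4 had the weakest signal and differed in its pattern over the arrays once control 616, described below, was left out. The window of Apoh is shown because this gene had the largest difference between groups with all 10 arrays, which control 616 carried. Capitals mark AGGTCA, the half-site of many nuclear receptors, thyroid hormone receptors among them, and TATAAA, the TATA box, on either strand.
Apoa1, chr9:46228380-46228629, + strand: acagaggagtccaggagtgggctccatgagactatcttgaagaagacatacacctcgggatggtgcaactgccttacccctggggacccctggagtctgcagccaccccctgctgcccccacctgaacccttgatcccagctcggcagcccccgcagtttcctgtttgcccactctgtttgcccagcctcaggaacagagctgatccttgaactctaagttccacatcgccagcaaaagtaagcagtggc
Apoa4, chr9:46240594-46240843, + strand: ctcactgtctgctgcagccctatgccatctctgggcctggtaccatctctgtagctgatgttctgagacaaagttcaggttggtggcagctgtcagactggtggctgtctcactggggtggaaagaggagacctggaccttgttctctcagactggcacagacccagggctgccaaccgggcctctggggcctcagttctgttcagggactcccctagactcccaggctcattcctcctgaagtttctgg
Apoa5, chr9:46268358-46268607, + strand: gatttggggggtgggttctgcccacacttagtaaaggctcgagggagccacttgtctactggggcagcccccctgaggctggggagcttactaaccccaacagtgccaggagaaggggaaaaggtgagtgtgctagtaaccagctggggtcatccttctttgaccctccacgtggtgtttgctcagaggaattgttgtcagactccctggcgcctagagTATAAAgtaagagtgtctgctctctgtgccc
Apoh, chr11:108395047-108395296, + strand: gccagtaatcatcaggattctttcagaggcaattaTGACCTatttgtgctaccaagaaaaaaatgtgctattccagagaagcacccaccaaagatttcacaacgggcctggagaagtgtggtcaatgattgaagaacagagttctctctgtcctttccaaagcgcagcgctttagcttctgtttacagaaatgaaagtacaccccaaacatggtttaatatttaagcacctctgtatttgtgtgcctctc
The capitals in the Apoa5 window are a TATAAA that starts 31 bases before the annotated start, and those in the Apoh window are the AGGTCA half-site read on the opposite strand, 215 bases before the start. Both strands were searched for 5 motifs, and only AGGTCA and TATAAA are in capitals. AGGTCA was found in 3 of the 8 genes (Apoa2, Apoc2 and Apoh) and 3 of their 12 windows, against 14.0% of all 32851 windows. TATAAA was found in 4 genes (Apoa2, Apoa5, Apob and Apoe) and 5 windows, against 12.4%. CAAAG, a core of sites for HNF4 and TCF-like factors, was found in 6 genes and 8 windows, against 48.6%. CCAAT was found in 1 gene (Apoa2) and 2 windows, against 33.9%. GTTAAT, an HNF1 half-site, was found in 2 genes (Apoc2 and Apoe) and 2 windows, against 6.43%. A gene with several windows was counted if any of them held the motif, so only the window counts compare with the percentages. The windows of Apoa5 overlap and hold the same TATAAA. The matches describe the letters only, and binding was not measured.

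Before the results, 3 arrays need a description. Control 616 stood apart from all others: over all probes its log2 ratios had an r of 0.88 with the average array of the remaining slides, against 0.973 to 0.988 for the other arrays. Both arrays of slide 141, control 832 and hypothyroid 576, ran opposite to the other slides with the dyes as labelled (r = -0.973 and -0.978), so the channels of these arrays were exchanged here. The labels and methods give Cy5 as liver on all arrays, so the dye orientation of slide 141 is not settled by them. Results are therefore also given without control 616, with the dyes as labelled, and without slide 141. The tissue was checked by 22 tested genes for proteins that hepatocytes secrete, such as albumin, and all 22 were above background in both groups. Their mean log2 ratio was 2.69 to 5.09 in control livers, with control 616 lowest and the other controls from 4.42, and 4.53 to 5.15 in hypothyroid livers. Genes of pancreatic acinar cells were also seen: the mean log2 ratio of 15 of them was 0.72 to 4.07 in control livers and 0.63 to 0.74 in hypothyroid livers. Their part in the results below was not tested.

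No apolipoprotein gene passed the test across all probes for a change in hypothyroid liver. Only 2 of 33942 probes did, so the 0 does not set these genes apart. By limma, 0 of the 9 genes had an adjusted p below 0.05 (0 also at an unadjusted p below 0.05), while 0.00589% of all 33942 probes tested had such an adjusted p (2 probes) and 7.23% such an unadjusted p (3.25% higher and 3.98% lower in hypothyroid liver). Without control 616 the genes again numbered 0 at an adjusted p below 0.05, against 0.0884% of all probes (30 probes). By the Fs test, 0 of the 9 had an adjusted p below 0.05, against 0.0236% of all probes, and 2 an unadjusted p below 0.05, against 7.76%. The values of the hypothyroid livers overlapped those of the control livers for all 13 probes, against 1.99% of all probes without overlap. All 9 means were higher in hypothyroid liver, against 46% of all probes higher and 54% lower, with a median change of 0.61 (all probes, -0.01). Without control 616, 8 of 9 were higher against 49% of all probes, and the median fell to 0.30 (all probes, -0.00). The 9 genes were measured in the same RNA of whole liver and are not independent of each other, and in whole tissue fewer cells of a type and less RNA per cell cannot be told apart.

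**Figure D1:**
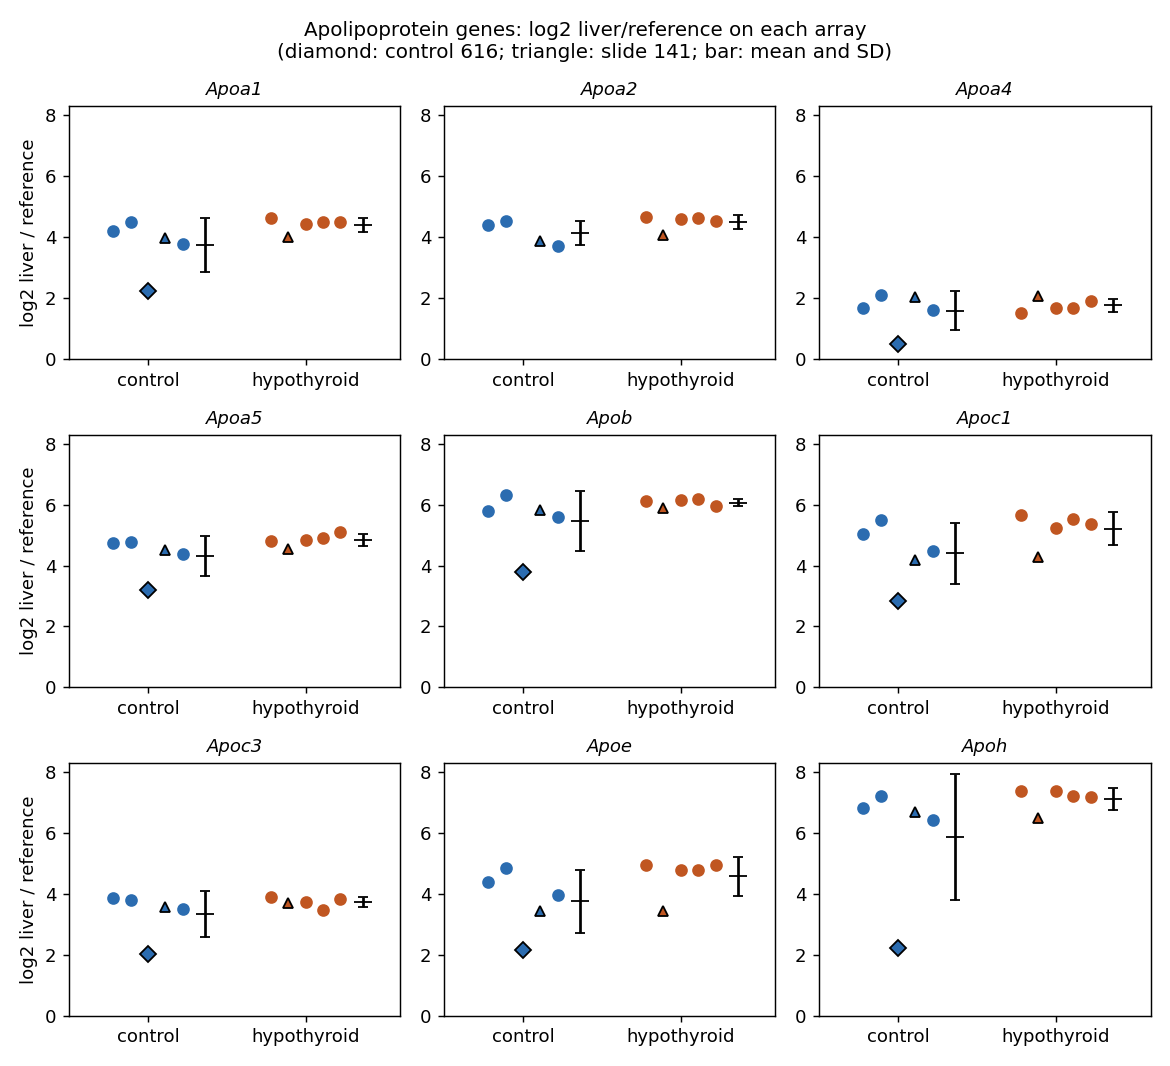
Log2 liver/reference (vertical axis) of the 9 apolipoprotein genes on each of the 10 arrays, 5 control (blue) and 5 hypothyroid (orange), with the mean and SD of each group to the right of its points. Control 616 (diamond) is the lowest control array in every panel where it was measured, and slide 141 (triangles) holds the lowest hypothyroid value of 7 of the 9 genes.

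Apoa1 encodes the main protein of HDL. In control livers 391, 522, 616, 832 and 881 its log2 ratio was 4.20, 4.50, 2.24, 3.97 and 3.77, and in hypothyroid livers 311, 576, 626, 723 and 891 it was 4.62, 4.01, 4.42, 4.50 and 4.49. Control 616 was far below every other array, and the remaining control values overlapped the hypothyroid ones. The mean was 3.74 ± 0.88 (SD, n = 5) in control and 4.41 ± 0.23 (SD, n = 5) in hypothyroid liver, a change of 0.67 (SE 0.35, limma adjusted p = 0.729). Without control 616 the change was 0.30 (95% interval -0.04 to 0.63), or 1.23-fold.

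The other 3 genes of the chromosome 9 cluster gave smaller changes. Apoa4, whose product is made largely in the intestine, had ratios of 1.69, 2.10, 0.50, 2.05 and 1.62 in control livers and 1.53, 2.06, 1.69, 1.68 and 1.91 in hypothyroid livers, in the same order of animals. Apart from control 616 the groups covered the same range. The change was 0.18 (SE 0.27, limma adjusted p = 0.884) and turned to -0.09 (95% interval -0.38 to 0.19) without control 616. Apoa5, a regulator of triglyceride breakdown in blood, had ratios of 4.75, 4.77, 3.18, 4.50 and 4.37 in control and 4.80, 4.54, 4.84, 4.91 and 5.10 in hypothyroid livers. Every hypothyroid value but that of animal 576 was above all control values. The change was 0.53 (SE 0.27, limma adjusted p = 0.723; exact two-sided permutation p = 0.0476 over 252 assignments, the smallest possible being 0.00794), and 0.24 (95% interval -0.02 to 0.50; exact permutation p = 0.111) without control 616. Its other probe gave 0.25 (exact permutation p = 0.270) and, without control 616, 0.07 (exact permutation p = 0.548). With all arrays the probes taken for the other genes had exact permutation p from 0.0873 (Apoa1) to 0.730 (Apoa4). The share of all probes below 0.05 by this test was not computed.

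Apoc3, an inhibitor of lipoprotein lipase, had ratios of 3.86, 3.79, 2.03, 3.57 and 3.49 in control and 3.88, 3.68, 3.72, 3.48 and 3.84 in hypothyroid livers. The hypothyroid values lay among those of the 4 controls other than 616, 1 of them slightly below and 1 slightly above. The change was 0.37 (SE 0.30, limma adjusted p = 0.785) and 0.05 (95% interval -0.18 to 0.27) without control 616, and the other probe gave 0.46 and 0.11.

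Apoa2, the other abundant protein of HDL, had no usable value on control 616, where its spot was marked as an outlier. In control livers 391, 522, 832 and 881 its ratio was 4.39, 4.54, 3.88 and 3.72, and in the hypothyroid livers it was 4.65, 4.09, 4.58, 4.64 and 4.53. Animals 832 and 576, the pair on slide 141, were low together in their groups, as was control 881. The change was 0.37 (SE 0.19, limma adjusted p = 0.726) from 4.13 ± 0.40 (SD, n = 4) to 4.50 ± 0.24 (SD, n = 5).

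Apob was read by 3 probes. The probe taken for the gene gave 5.78, 6.30, 3.77, 5.82 and 5.60 in control and 6.11, 5.90, 6.16, 6.18 and 5.97 in hypothyroid livers. The highest single value was a control, animal 522, and the lowest was control 616. The change was 0.61 (SE 0.38, limma adjusted p = 0.749), and 0.19 (95% interval -0.09 to 0.46) without control 616. The other 2 probes gave 0.38 and 0.71 with all arrays (exact permutation p = 0.103 and 0.0476). Without control 616 they gave 0.35 and 0.24 (exact permutation p = 0.175 and 0.111). On the probe with the change of 0.38, control 616 (3.33) was not the lowest control array.

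Apoc1 and Apoe, neighbours on chromosome 7, moved together across the arrays, as did some genes on different chromosomes, given below. Apoc1, an inhibitor of particle uptake by receptors, had ratios of 5.03, 5.48, 2.84, 4.18 and 4.47 in control and 5.65, 4.28, 5.22, 5.53 and 5.37 in hypothyroid livers. Apoe, the ligand by which remnant particles are taken up, had ratios of 4.40, 4.84, 2.16, 3.43 and 3.97 in control and 4.94, 3.44, 4.77, 4.77 and 4.96 in hypothyroid livers. In both genes the arrays of slide 141 were the lowest after control 616, whichever group they belonged to. The change of Apoc1 was 0.81 (SE 0.44, limma adjusted p = 0.738), and without control 616 it was 0.42 (95% interval -0.24 to 1.07). The change of Apoe was 0.82 (SE 0.47, limma adjusted p = 0.746), and without control 616 it was 0.42 (95% interval -0.32 to 1.15). Liver signals of both probes were close to the top of the scale: Apoc1 reached 88.4% to 100% of the brightest probe of each array, and Apoe 88.0% to 100% on 9 arrays and 54.6% on control 616. None of their spots was marked as saturated.

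Apoh, beta-2-glycoprotein, a plasma protein that binds phospholipids, had the largest change of the group with all 10 arrays, but not without control 616. Its ratio was 6.82, 7.22, 2.21, 6.70 and 6.42 in control and 7.37, 6.50, 7.36, 7.21 and 7.17 in hypothyroid livers. Control 616 was more than 4 log2 units below the next lowest array, and the other control values overlapped those of hypothyroid animals 576, 723 and 891. The change was 1.25 (SE 0.80, limma adjusted p = 0.752; exact permutation p = 0.111), from 5.87 ± 2.07 (SD, n = 5) to 7.12 ± 0.36 (SD, n = 5). Without control 616 it was 0.34 (95% interval -0.08 to 0.75), or 1.26-fold, below the changes of Apoc1, Apoe and Apoa2, whose intervals overlap it.

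**Figure D2:**
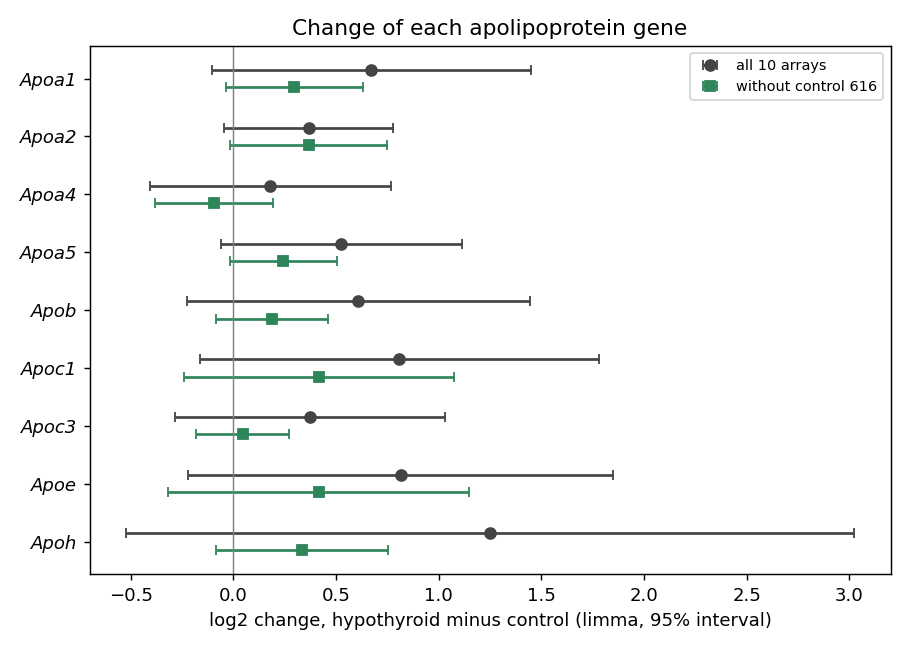
Log2 change, hypothyroid minus control, of each apolipoprotein gene by limma with its 95% interval (horizontal axis), over all 10 arrays (circles) and without control 616 (squares). All intervals include 0, and for the genes other than Apoa2, which had no value on that array, the squares lie left of the circles.

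The low ratios of control 616 came from different channels in different genes: the reference was higher in Apoc1 and Apoe, the liver was lower in Apoa4, and both moved in most of the others. Relative to the median of each array's signals, its liver level was below the median of the 7 arrays other than itself and slide 141 by 1.77 for Apoa1, 1.48 for Apoh and 1.23 for Apoa4 on the log2 scale, while for Apoc1 it was 0.70 higher. Its reference level was higher by 3.95 for Apoh and 3.85 for Apoc1. The reference spot of Apoh read 10560 on control 616 against a median of 673 on the 7 arrays, and that of Apoc1 87526 against 6002. For Apoa4 the reference spot read 39 against 53. The reference is the same purchased RNA on every array.

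**Figure D3:**
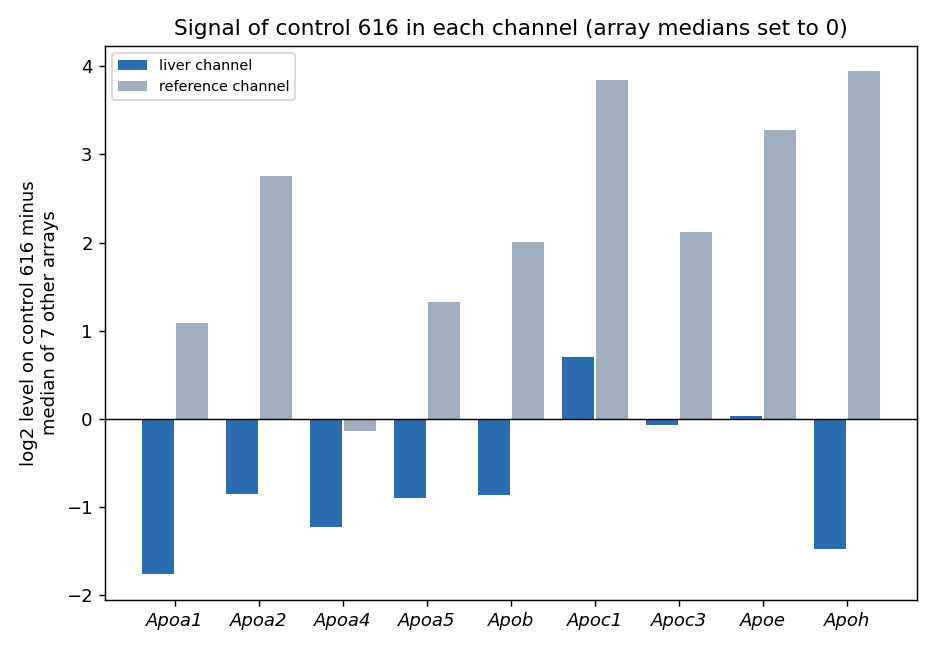
Log2 signal of control 616 minus the median of the 7 arrays other than itself and slide 141 (vertical axis), for the liver channel (blue) and the reference channel (grey) of each apolipoprotein gene, after each array's median was set to 0 in each channel. The reference bars are above 0 for 8 of 9 genes, and the liver bars are below 0 for 7 of 9.

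With the channels read apart and without control 616, the apolipoprotein genes showed no common direction in liver. The liver level was higher in hypothyroid animals for 4 genes and lower for 5, with a median of -0.03 (range -0.30 to 0.29). Apoc1 was 0.22 higher (exact permutation p = 0.0317, 1 of 9 genes tested in the liver channel) and Apoe 0.21 higher (exact permutation p = 0.0556), levels that are relative to the median of each array. With the liver channel quantile normalized the differences were 0.0016 for Apoc1 (limma adjusted p = 0.997) and 0.02 for Apoe (limma adjusted p = 0.960). Quantile normalization gives probes of equal rank the same value on every array. Both probes were near the top of each array used, so this setting could show little difference and is no test of the higher levels. The reference level was lower on the hypothyroid arrays for 8 of 9 genes, with a median of -0.22 (range -0.33 to 0.10), and no gene had an exact permutation p below 0.40 in this channel. Slide 141 was kept in both channels, with its dyes exchanged. Its reference levels of Apoc1 were 7.15 (control 832) and 7.38 (hypothyroid 576), against 5.12 to 5.73 on the remaining arrays. This widens the spread in both groups, so the high p-values do not show equal reference levels.

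The arrays lay on 6 slides, taken here as batches, and 4 slides held an array of each group. On slide 139 all 9 genes were higher in the hypothyroid animal, with a median difference of 0.74. On slide 141 8 of 9 were higher with a median of 0.04, and on slide 136 7 of 9 with a median of 0.10. On slide 100, which holds control 616, all 8 genes with a value were higher, with a median of 2.28. The median of all probes was between -0.04 and 0.01 on these slides. Apoa4 was 0.58 lower in the hypothyroid animal on slide 136, Apob was 0.18 lower there, and Apoh was 0.20 lower on slide 141. With the dyes of slide 141 as labelled all 9 means were higher (median 0.66), and without the slide too (median 0.74). Slide 141 holds 1 array of each group with a median difference of only 0.04, and both settings keep control 616. Neither setting could therefore do much to the direction of the means.

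**Figure D4:**
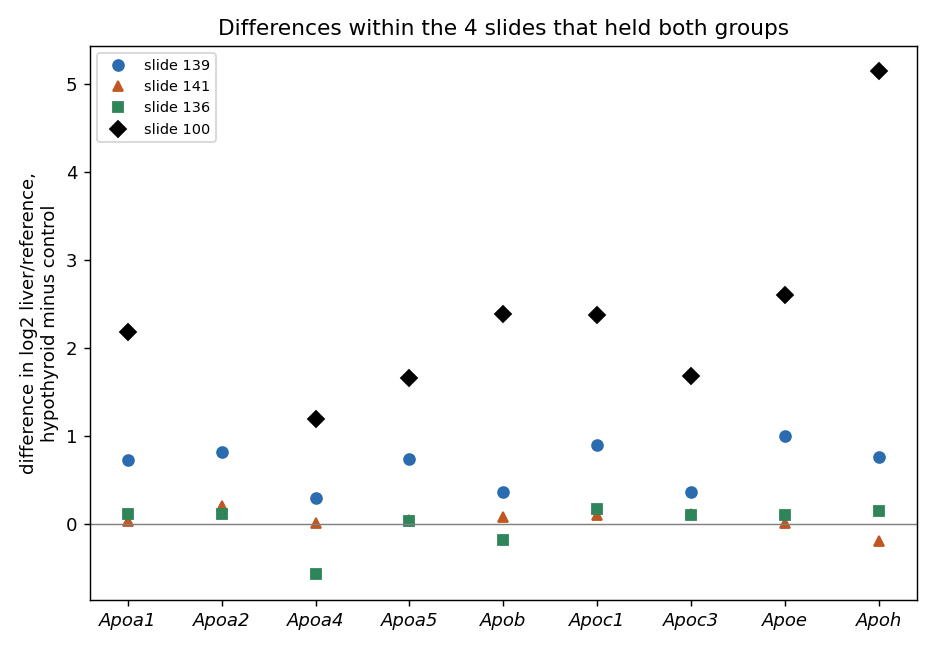
Difference in log2 liver/reference, hypothyroid minus control (vertical axis), of each apolipoprotein gene within each of the 4 slides that held both groups, 1 animal of each group per slide. The differences on slide 100, which holds control 616, are the largest for every gene measured there, and those on slides 136 and 141 lie between -0.58 and 0.21.

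Among themselves the apolipoprotein genes ran in parallel over the arrays. The median r of the 36 pairs was 0.90 over 10 arrays and 0.78 without control 616, where Apoc1 and Apoe had the highest (0.97). Apoa1 and Apoa2, on different chromosomes, also had an r of 0.97 there, and Apoa1 and Apoh 0.96. The neighbours Apoa1 and Apoc3 had 0.55. These are correlations over few arrays that share a reference and the groups, and are given as a description. Apoa4 stood apart without control 616: its r with Apoe was -0.41 and with Apoa1, its neighbour, -0.17. The genes most like Apoh over the 10 arrays were Slc27a2 (r = 0.998), Pon1 (0.996), Sema4g (0.996), Fgl1 (0.995) and Cyp2c29 (0.995), with r between 0.896 and 0.951 without control 616.

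Genes of the pathway outside the list were read in the same way, and 7.23% of all probes are the background for their counts. Of 14 other apolipoproteins and partners tested, 2 were higher and 1 lower at an unadjusted p below 0.05 by limma, and 0 at an adjusted p, with a median of 0.37 (0.12 without control 616). Apoo, a mitochondrial member of the family, was 0.45, 0.68, 0.95, 0.58 and 0.85 in control and 0.23, 0.28, 0.42, 0.26 and 0.35 in hypothyroid livers. These groups did not overlap, and the change was -0.40 (SE 0.10, limma adjusted p = 0.318). Of 14 genes for lipoprotein assembly and Apob editing, 2 had an unadjusted p below 0.05 and a higher mean and 1 a lower, with a median of 0.11. The values of Cidec, a lipid droplet protein, were 0.59, 0.84, 0.47, 0.99 and 0.92 in control and 2.21, 1.09, 1.00, 1.33 and 1.05 in hypothyroid livers, without overlap (0.57, SE 0.22, limma adjusted p = 0.634). P4hb, the partner subunit of the transfer protein that loads Apob with lipid, was at 0.50, 0.49, -0.12, 0.47 and 0.15 in control and 0.85, 0.57, 0.81, 0.56 and 0.78 in hypothyroid livers, also without overlap (0.42, SE 0.13, limma adjusted p = 0.504).

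Of 33 regulators of apolipoprotein transcription, 2 were higher and 3 lower at an unadjusted p below 0.05, with a median of 0.03. Of 20 receptors and lipases of apolipoproteins, 4 were higher and 1 lower, with a median of 0.07. The hepatocyte secreted proteins, which are not apolipoproteins, had all 22 means higher in hypothyroid liver with a median of 0.68, and 0.26 without control 616, beside 0.61 and 0.30 for the apolipoprotein genes. Of 13 macrophage markers 0 were higher and 1 lower, of 5 intestine markers 0 were in either direction, of 7 erythroid markers 2 were higher, and of 15 pancreatic acinar markers 12 were lower. Every one of these lists had 0 genes at an adjusted p below 0.05.

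Genes known to follow thyroid hormone in liver were read on the same arrays. Of 4 tested, all 4 were lower at an unadjusted p below 0.05, with a median of -0.77, and 0 had an adjusted p below 0.05 by limma. Dio1, a deiodinase of thyroid hormone, was 5.53, 5.48, 3.94, 5.76 and 5.46 in control and 3.52, 4.91, 4.31, 4.28 and 4.43 in hypothyroid livers. Apart from control 616 the groups did not overlap, and the change was -0.94 (limma adjusted p = 0.618), or -1.27 without control 616. Thrsp, a regulator of lipid synthesis, had a change of -1.16 (limma adjusted p = 0.356), and -1.38 without control 616. Gpd2, a mitochondrial enzyme, had a change of -0.60, and of -0.78 with an adjusted p of 0.045 by limma without control 616. Me1, malic enzyme, had a change of -0.48 (limma adjusted p = 0.281) without overlap between the groups.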

How the data were processed

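Liver RNA of 5 control and 5 hypothyroid pups was measured on 2-colour arrays, and groups and slides were taken from the labels. The authors deposited the scanner output of Agilent Feature Extraction 10.1.1.1, which holds the median and processed signal intensity of each spot, not normalized between arrays, and other columns of flags and annotation, deposited as the software wrote them. Here control spots and outlier spots (0.189% to 1.31% per array) were left out, and median intensities were corrected with normexp (offset 50) and loess (span 0.2) in limma 3.58.1 (R 4.3.3). A probe was kept if its liver or reference signal was above a limit set from the negative control spots (3 trimmed SDs over their mean, with a trim of 5%) on at least 4 arrays of a group. This left 33942 of 41174 probes, and 23374 of all probes matched a gene symbol by accession (RefSeq, GRCm38.p6). limma was run on all probes kept and p-values were adjusted by Benjamini-Hochberg at 0.05. A gene with several probes was represented by the probe with the fewest saturated arrays and then the brightest liver signal. Single genes were also compared by exact permutation. P-values measure the spread between arrays, each of 1 pup, so the spread of pups and that of arrays cannot be told apart. The number of arrays limits the precision.

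Named were all members and their probes, list genes at an adjusted p below 0.05, up to 3 per pathway list without overlap at an unadjusted p below 0.05, Dio1, Thrsp and the 5 genes most like Apoh. Me1 is named by the same rule on the thyroid hormone list, and Gpd2 by its adjusted p without control 616. The members, lists and the exchange of channels on slide 141 were chosen with earlier results of these data known. Alternatives were the background correction, the processed signals, median centring, another loess span, the liver channel alone, the filter, saturated spots, slide as a block, the dyes of slide 141, probes averaged to genes, the Fs test with 100 residual shuffles and each array left out. The programs were tested on simulated data: of 200 changed probes among 33510, 50.5% were recovered at a change of 0.5 log2 units, 88.5% at 1 and 98.5% at 2. The changed probes were drawn at random, with noise independent between probes and arrays, so no array stood apart over many probes. These rates do not hold for the apolipoprotein genes, whose SEs ran from 0.19 (Apoa2) to 0.80 (Apoh). Their own recovery was not simulated.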

Additional observations from a re-analysis of the deposited data

Results flagged for a closer look

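Of the 18 groups of arrays of the 9 apolipoprotein genes, 7 (38.9%) had an array far from the others by Dixon's test, which flags about 5% of groups by chance, and the genes share their arrays. The gap to the nearest array over the range of the group is given for each. In control livers control 616 lay far below the others for Apoa5 (0.746), Apob (0.724), Apoc3 (0.796) and Apoh (0.839). In hypothyroid livers it was animal 576, on slide 141, for Apoa2 (0.792), Apoe (0.872) and Apoh (0.77), at log2 ratios of 4.09, 3.44 and 6.50. What set these arrays apart was not tested.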

How the results depend on the processing

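No apolipoprotein gene passed an adjusted p of 0.05 in any of 27 alternatives. An unadjusted p below 0.05 was reached by 0 of the 9 genes in 21 of these, and by at least 1 in the other 6: 2 by the Fs test (7.76% of all probes), 5 without control 522 (8.57%), 3 without hypothyroid 576 (6.56%), 1 without control 391 (7.2%), 5 without control 616 and slide 141 together (7.16%) and 1 with slide as a fixed block and no control 616 (7.48%). Of 243 values of single genes, 233 kept their direction and 10 reversed. Most alternatives kept control 616 and its low ratios, and the other filters, the saturated spots and the Fs test left every estimate as it was. The 233 are therefore no measure of how stable the direction is, and most of the reversals came with control 616 left out. Apoa4 reversed without control 616 (-0.093, the lowest with single arrays left out, the highest being 0.31 without control 522) and when control 616 was left out together with slide as a fixed block (-0.092) or with slide 141 (-0.10), but not with the block or without slide 141 alone (0.23 and 0.22). With the liver channel alone Apoc1 (-0.0031) and Apoc3 (-0.17) reversed, and with the liver channel alone and no control 616 Apoa1 (-0.059), Apoa4 (-0.16), Apoa5 (-0.17), Apoc3 (-0.33) and Apoh (-0.11) did. Quantile normalization, used in these settings, left Apoc1 little room to differ, so its reversal says little. The median change of the genes was 0.10 with the liver channel alone and -0.06 when control 616 was also left out, and leaving out single arrays gave 0.30 (control 616) to 0.82 (control 522). The number of probes called by limma, 2 with all arrays, was 1 with the processed signals, with median centring (which moved the median of all probes to 0.08) and with the liver channel alone, 0 with slide as a fixed block (2337 at an unadjusted p below 0.05), with the dyes as labelled (119) and without slide 141 (2492), 14 with slide as a random block and 8 by the Fs test. Single arrays left out gave 1 to 30, the highest without control 616. Chosen after seeing the data, slide as a fixed block without control 616 gave 1, no control 616 and no slide 141 gave 1, and the liver channel alone without control 616 gave 31. No paired analysis was possible because the animals share no replicate numbers between groups, other than by slide, which was fitted as a block with the values above. A fit on mean in place of median spot signals was not run. Array 616 and the signals of Apoc1 and Apoe near the top of the scale limit what can be read. The cause of these shifts was not tested.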
